A study of Homo sapiens with 18 samples.

Results

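The mitosis and spindle genes described here are 58 genes whose products drive entry into mitosis, build the spindle, attach chromosomes to it, compact and separate the chromosomes or divide the cell. They were listed by name with earlier results of these data known, the listing rule itself using no measured value, and each symbol matched 1 Ensembl gene of the 63677 genes in the count table. All 58 passed the filter on low counts, which kept the 15576 genes counted over 5 times in 10 or more of the 18 libraries. RNA was sequenced from NCI-H1299, an established human non-small cell lung cancer line, to learn which transcripts differ when a T-box transcription factor is forced on. In 3 libraries per group, cells had been transiently transfected with Flag-tagged human TBX2, HA-tagged human TBX3, Flag-tagged human TBX4 or HA-tagged mouse TBX5, or were labelled EV, for empty vector, or Ctl, a control whose treatment the sources used here do not state. The tagged constructs came from more than 1 vector family, and the backbone of the empty vector is not named. Transient transfection reaches only some of the cells, so each library mixes transfected and untransfected cells of 1 line. Nothing states whether the 3 libraries of a group were separate cultures, so p-values measure the spread between these libraries.

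Mitosis is run by cyclin-dependent kinase 1 with its cyclin partners, helped by the Polo-like and Aurora kinases, which set off chromosome condensation and spindle assembly. Kinetochores tie chromosomes to spindle microtubules, the spindle checkpoint holds the cell until all are attached, and the anaphase-promoting complex then triggers chromosome separation. Many of these genes are transcribed together late in the cell cycle, through a promoter element named CHR (cell cycle genes homology region), and their transcripts are abundant in fast-growing tumour lines.

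1 library carries a title with conflicting parts, 4c and TBX5, and was placed with the TBX4 libraries by its number, which left 3 libraries in each group. It held 85197 counts of TBX4 and 1 count of TBX5, and results on TBX4 are given with and without it. The transfected gene stood out in every group. TBX2 had 27704 to 47916 counts in its own libraries and 15 to 59 in the others, TBX3 had 135416 to 320890 against 12 to 119, and TBX4 had 85197 to 109159 against 0 to 19. The human TBX5 gene had 1161 to 1302 counts in the libraries given the mouse construct and 0 or 1 in the others. Totals ran from 7365221 to 11743179 counts per library, and 1 gene with no symbol, ENSG00000266658, took from 10.7% to 53.5% of them. Levels below are in CPM, a gene's counts relative to a library size scaled by TMM, a method that rests on the bulk of genes. Of the markers of the line, vimentin (VIM) was at 689 to 967 CPM, KRT8 at 19.3 to 52.5 CPM and KRT18 at 43.0 to 75.5 CPM. KRT19, the lung adenocarcinoma and alveolar markers NKX2-1, SFTPB, SFTPC and NAPSA, and the leukocyte, endothelial and fibroblast markers matched had at most 12 counts in any library. The 3 keratins summed to 66.1 to 73.9 CPM with TBX2 against 110.4 to 113 in EV and 96.2 to 114 in Ctl, and VIM was at 689 to 749.98 CPM against 858 to 967 in the controls. With TBX3 the keratins were at 76.5 to 84.5 CPM and VIM at 739.6 to 778 CPM, and with TBX4 VIM was at 785 to 854 CPM, all below every control library. The keratins with TBX4, at 83.8 to 98.8 CPM, and both markers with TBX5, at 101 to 125 CPM and 795 to 891 CPM, overlapped the controls, and the part of these differences in the results below was not tested.

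The mitosis and spindle genes were well covered, with 52 to 8319 counts per gene and library, where the limit that a count of 0 allows (3 counts) equals 0.191 to 0.593 CPM. Their median level in EV was 87.6 CPM, from 11.6 CPM for SPC25, a kinetochore subunit, to 561 CPM for MKI67, which coats mitotic chromosomes and is the Ki-67 proliferation marker. Per kilobase of exon, the highest levels in EV were those of TPX2, which nucleates spindle microtubules (106 CPM per kilobase), cyclin B1 (CCNB1, 74.4), CDC20 (72.7), securin (PTTG1, 70.3) and UBE2C (57.3). The lowest per kilobase were the condensin subunit NCAPH (5.29), the checkpoint gene MAD2L1 (6.26) and SPC25 (6.34). Lengths joined the exons of all annotated transcripts of a gene, 6545 bases for NCAPH and 5517 for MAD2L1. Where these exceed the transcripts present, the value per kilobase is too low, so this ranking is rough.

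Summed over the 58 genes, the level was lowest with TBX2 and highest in Ctl. The 3 Ctl libraries held 7512 to 7613 CPM of these transcripts and the EV libraries 7011 to 7091 CPM. The TBX2 libraries held 6340.2 to 6554 CPM, those of TBX3 6739 to 7026 CPM, those of TBX4 6672 to 6877 CPM and those of TBX5 6490.3 to 6683 CPM. All TBX2, TBX4 and TBX5 libraries lay below all EV and Ctl libraries, whereas the highest TBX3 library overlapped the EV range. As a share of all counts outside the most counted gene, the TBX3 libraries, at 0.968% to 1.00%, were also below EV at 1.04% to 1.08% and Ctl at 1.10% to 1.14%. Relative to EV the mean sum differed by -8.44% (TBX2), -1.93% (TBX3), -4.37% (TBX4) and -6.53% (TBX5). Relative to Ctl the differences were -14.7%, -8.62%, -10.9% and -12.9% in the same order, and EV itself was at -6.82% relative to Ctl. In bulk RNA, fewer cells in mitosis and less of these transcripts per cell cannot be told apart.

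**Figure D1:**
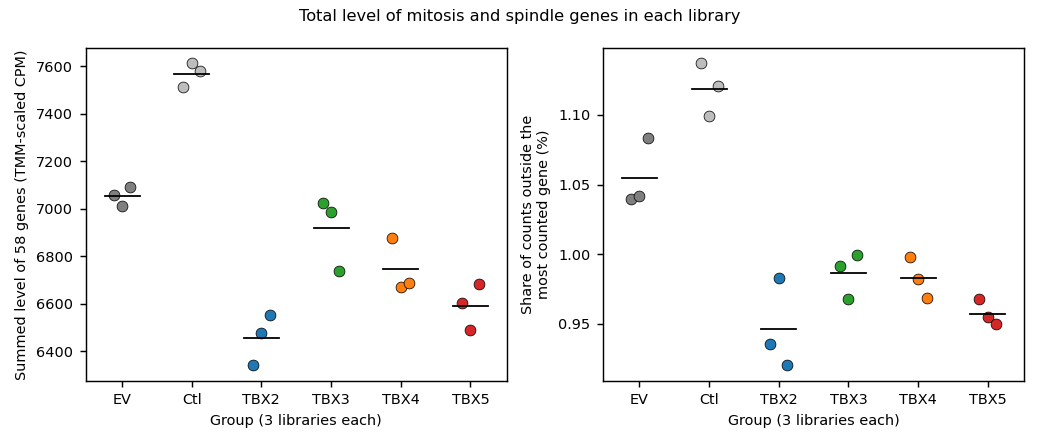
Summed level of the 58 mitosis and spindle genes in each library by group, as TMM-scaled CPM (left) and as a share in % of all counts outside the most counted gene (right); points are libraries, lines are group means, and the vertical axes do not start at 0. Ctl libraries sit highest, at 7512 to 7613 CPM, EV next, at 7011 to 7091 CPM, and the TBX2 libraries lowest, at 6340.2 to 6554 CPM; on the share scale the TBX3 libraries also lie below EV.

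Each TBX was compared with EV and with Ctl separately in edgeR, by its quasi-likelihood test, and a gene passed at an adjusted p under 0.1 (Benjamini-Hochberg, over all 15576 genes). With TBX2, 26 of the 58 genes fell and 5 rose relative to EV, where 13.4% of all tested genes fell and 14.7% rose, and 35 fell and 1 rose relative to Ctl, where 13.4% fell and 15.3% rose. With TBX3, 5 fell and 0 rose relative to EV (background 4.12% and 5.78%), and 14 fell and 1 rose relative to Ctl (4.15% and 6.66%). With TBX4, 3 fell and 0 rose relative to EV (2.63% and 3.83%), and 22 fell and 0 rose relative to Ctl (4.03% and 5.68%). With TBX5, 5 fell and 0 rose relative to EV (4.96% and 5.26%), and 29 fell and 0 rose relative to Ctl (4.38% and 5.7%). The share of members lower than EV was thus 8.62%, 5.17% and 8.62% for TBX3, TBX4 and TBX5, closer to the background than the 44.8% for TBX2. Against Ctl it stood above the background for each of the 4 factors, at 60.3%, 24.1%, 37.9% and 50%. These genes are more abundant than most, and the median standard error of their log2 fold changes was 0.07 in each contrast, against 0.14 over all tested genes with TBX2 relative to EV. The contrasts share their control or TBX libraries, so their counts are not independent of each other.

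Single libraries moved several of these counts. Without the library of conflicting title, 1 gene (ANLN) was lower than EV with TBX4 and 13 were lower than Ctl, all among those called with it. Against EV, the TBX2 count was 15 without EV c and 17 without TBX2 a, and the TBX4 count was 1 without EV b, EV c or TBX4 a. The TBX3 count against EV was 2 without EV b or EV c, 3 without TBX3 a and 8 without TBX2 b or TBX5 a, and the TBX5 count was 8 without TBX2 b. Against Ctl, the TBX3 count was 9 without Ctl b and 7 without TBX3 b. The TBX4 count against Ctl was 10 without Ctl b, 13 without Ctl c and 9 without TBX4 b. The TBX5 count against Ctl was 15 without Ctl b, 19 without Ctl c, 13 without TBX5 b and 18 without TBX5 c. The counts over all tested genes moved as well. Of these, 2088 were lower than EV with TBX2, and 1520 without EV c. With TBX3 641 were lower than EV, 227 without EV c and 742 without TBX2 b. With TBX4 410 were lower than EV, 180 without EV b and 215 without the library of conflicting title. With TBX5 682 were lower than Ctl, 434 without Ctl b and 425 without TBX5 b.

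**Figure D2:**
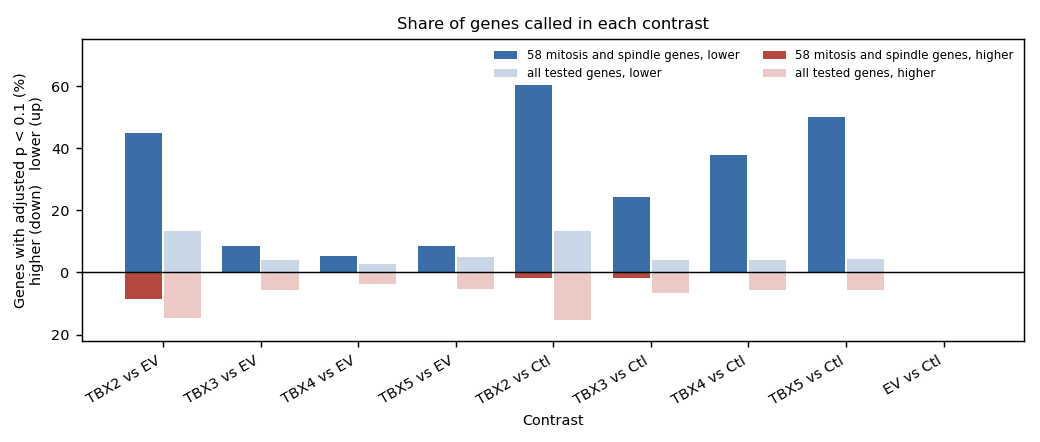
Share in % of the 58 mitosis and spindle genes (dark bars) and of all 15576 tested genes (pale bars) with adjusted p under 0.1 in each contrast, lower upward and higher downward from 0. In the TBX2 contrasts 44.8% and 60.3% of the 58 genes were lower, against 13.4% of all tested genes.

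The changes were small, with most members on the same side. Median log2 fold changes relative to EV and Ctl were -0.14 and -0.23 (TBX2), -0.04 and -0.14 (TBX3), -0.06 and -0.14 (TBX4), and -0.10 and -0.19 (TBX5), while the medians over all tested genes were within 0.01 of 0. Of the 58, the fitted change was below 0 for 45 and 50 genes (TBX2), 37 and 54 (TBX3), 43 and 52 (TBX4), and 47 and 54 (TBX5). The direction of some of these medians changed with plain library totals as the scale. It did not change with totals that leave out the most counted gene. There the TBX4 medians of the members were -0.09 and -0.16, and that of EV relative to Ctl was -0.08. With plain library totals in place of TMM, the median over all tested genes itself moved. It ran from -0.40 (TBX5 relative to EV) to 0.36 (TBX4 relative to Ctl). The TBX4 medians of the members turned positive, at 0.11 and 0.22, as did that of EV relative to Ctl, at 0.10. On this scale 0 members passed in any contrast, where few of all tested genes were called lower. The share lower ran from 0% (TBX3 and TBX4 relative to EV among them) to 0.366% (TBX2 relative to EV). Up to 486 of the 15576 tested genes were called higher (TBX2 relative to Ctl). Relative to all tested genes the members' medians then remained lower, at -0.15 and -0.23 (TBX2), -0.04 and -0.14 (TBX3), -0.05 and -0.14 (TBX4), and -0.10 and -0.19 (TBX5). With totals that leave out the most counted gene, lower calls made up 69.4% of all calls for TBX3 relative to EV, against 41.6% under TMM, 56.7% against 38.4% for TBX3 relative to Ctl, 57.6% against 40.7% for TBX4 relative to EV and 63.3% against 48.5% for TBX5 relative to EV, and members lower than EV were then 27, 11, 3 and 11 from TBX2 to TBX5, where 14.5%, 8.0%, 3.45% and 6.23% of all tested genes were lower.

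No member passed the test between the 2 kinds of control. By fitted change, 51 of the 58 genes were lower in EV than in Ctl, with a median log2 difference of -0.10 (0.10 on plain totals), against 0.00 over all tested genes. edgeR called 0 members in either direction (background 0.0514% lower and 0.135% higher), with a smallest adjusted p of 0.326. DESeq2 called 1 member lower, and 9 of all 15576 tested genes. In edgeR 17 members had an unadjusted p under 0.05, and the share of all tested genes at that threshold is not given here. Because most members had a fitted change below 0 in EV relative to Ctl, the genes below both controls are given on their own. There were 23 with TBX2 (background 9.46%), 3 with TBX3 (1.8%), 3 with TBX4 (1.38%) and 5 with TBX5 (2.45%), and 0 members rose above both controls with any factor (background 11.1%, 4.03%, 2.63% and 3.41%). Removing a library changed some of these counts. The share over all tested genes without that library is not given here, so the changed counts have no background. For TBX2 it was 13 without EV c and 15 without TBX2 a. For TBX3 it was 1 without EV c or TBX3 b, and for TBX4 it was 1 without EV b, EV c, TBX4 a or the library with the conflicting title. For TBX5 it was 3 without any of the Ctl libraries, TBX5 b or TBX5 c.

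Counted by factor, 26 of the 58 genes were below both controls with at least 1 TBX, 21 of them with 1 factor only. CDK1 and KIFC1 were below both controls with 2 factors, SPC24, KIF23 and ANLN with 3, and no gene with all 4. The share of all tested genes by number of factors is not given here, so these counts have no background. A plainer count asks for all 3 libraries of a factor to lie below all 6 control libraries. By it 27 members were lower with TBX2 (background 11.6%), 11 with TBX3 (6.14%), 13 with TBX4 (5.74%) and 19 with TBX5 (6.55%), while 0 lay above with any factor (background 12.9%, 8.37%, 6.84% and 7.48%). At the other end, 10 genes passed the test in none of the 8 contrasts, namely CDC25C, PLK1, NUF2, SPC25, CENPA, INCENP, BIRC5, KIF18A, PTTG1 and SMC4. This count, too, is given without a share of all tested genes.

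**Figure D3:**
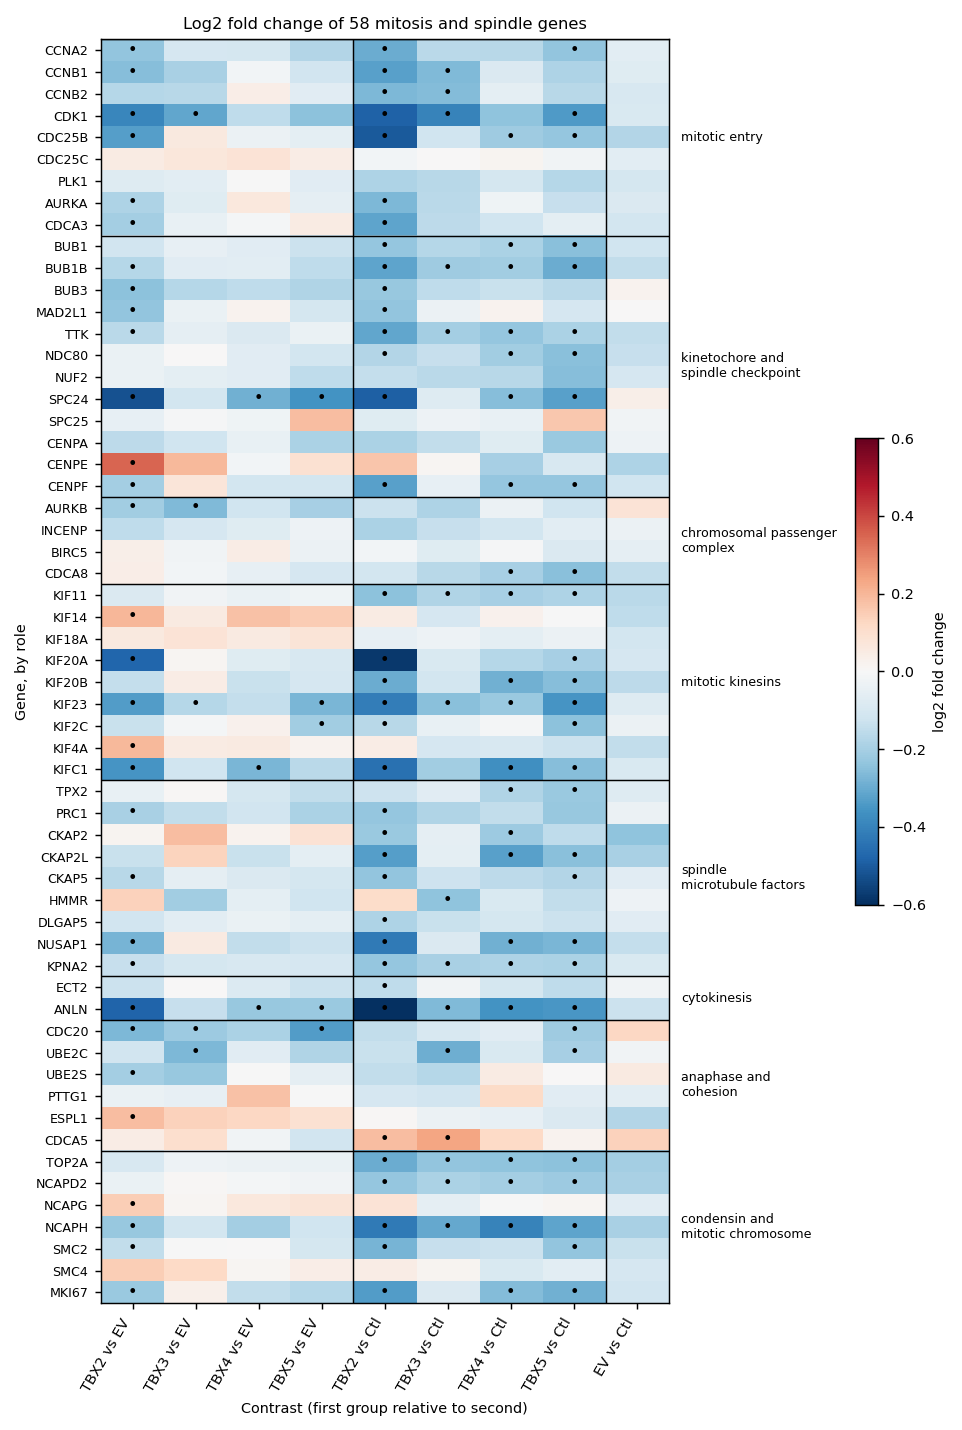
Log2 fold change of the 58 mitosis and spindle genes (vertical axis, grouped by role) in 9 contrasts (horizontal axis), blue for lower and red for higher in the first group on the TMM scale; dots mark adjusted p under 0.1. The columns against Ctl are bluer than those against EV, and the TBX2 column holds the deepest values, down to -0.61 for ANLN; with plain library totals as the scale the TBX4 values of most members turn positive.

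The promoters of 4 genes are shown because these were the first of the genes below both controls whose promoter holds the CHR letters, and capitals mark its letters TTTGAA, or TTCAAA where it reads in reverse. Each is 200 bases of RefSeq's GRCh38.p14 annotation, 180 before the start site and 20 from it.
ANLN (chr7:36389682-36389881, plus strand): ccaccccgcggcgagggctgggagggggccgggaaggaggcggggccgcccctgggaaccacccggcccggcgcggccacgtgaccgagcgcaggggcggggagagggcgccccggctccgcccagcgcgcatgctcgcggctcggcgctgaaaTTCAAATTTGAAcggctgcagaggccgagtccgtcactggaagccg
KIF23 (chr15:69414169-69414368, plus strand): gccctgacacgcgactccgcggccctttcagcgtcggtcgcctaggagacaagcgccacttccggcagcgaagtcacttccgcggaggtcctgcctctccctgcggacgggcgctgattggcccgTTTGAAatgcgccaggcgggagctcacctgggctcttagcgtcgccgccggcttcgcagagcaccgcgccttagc
CDK1 (chr10:60778151-60778350, plus strand): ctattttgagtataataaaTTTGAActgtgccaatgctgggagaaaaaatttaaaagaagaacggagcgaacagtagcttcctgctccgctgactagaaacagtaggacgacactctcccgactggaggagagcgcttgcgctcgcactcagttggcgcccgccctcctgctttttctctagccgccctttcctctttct
KIFC1 (chr6:33391643-33391842, plus strand): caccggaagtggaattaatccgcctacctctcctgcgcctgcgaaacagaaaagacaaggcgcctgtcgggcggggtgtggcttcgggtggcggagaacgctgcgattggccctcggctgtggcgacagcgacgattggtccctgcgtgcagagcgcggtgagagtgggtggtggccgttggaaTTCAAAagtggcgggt
In ANLN the letters stood in both orientations side by side, from -26 and from -20 relative to the start site, in KIF23 at -55, in CDK1 at -161 and in KIFC1 in reverse at base 5 of the transcript. CDK1 has a second listed start, whose window was not printed and held the letters at -69, -13 and 10.

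The promoter table held windows for 52 of the 58 genes, 64 windows in all, each of 250 bases before and 50 after a start. The CHR letters were in 38 of the 52 genes (73.1%) and in 64.1% of their windows, against 15.2% of all 35116 windows and 10.7% of those of tested genes. The CCAAT box, written CCAAT on either strand and known as the site of the NF-Y factor in such promoters, was in 41 genes (78.8%) and 71.9% of windows, against 34.6% and 34.9%, and 31 genes had both. A T-box half-site, GGTGTGA on either strand, was in 3 genes, KIF20A, MAD2L1 and SMC2, or 4.69% of windows. It was in 3.45% of all windows and 3.02% of those of tested genes. These matches are letters in a window and not measured sites. The difference between genes with and without the CHR letters was not tested. Median log2 values relative to EV and Ctl with TBX2 were -0.14 and -0.23 in the 38 genes with them and -0.21 and -0.23 in the 14 whose window lacked them, and with TBX5 they were -0.10 and -0.20 against -0.11 and -0.19.

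**Figure D4:**
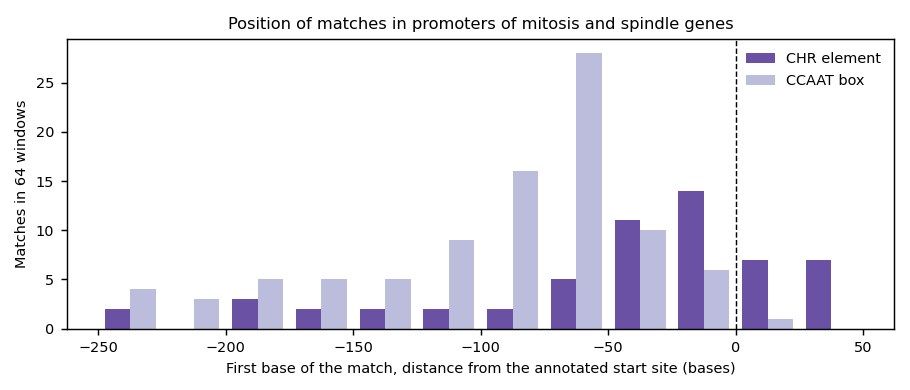
Matches of the CHR letters and of the CCAAT box in the 64 promoter windows of 52 mitosis and spindle genes, counted in bins of 25 bases (vertical axis, matches) by distance of the first base from the annotated start (horizontal axis, bases); windows of the same gene can overlap. CHR matches gather just before and after the start, and in 36 genes 1 lies no more than 100 bases before it or later; CCAAT matches gather further upstream.

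Genes of mitotic entry, 9 in all, fell most broadly with TBX2. There 6 fell relative to EV and 7 relative to Ctl, 6 of them in both. With TBX3 the counts were 1 and 3, with TBX4 0 and 1, and with TBX5 0 and 3, and no gene of this group rose. Of all tested genes, 13.4%, 4.12%, 2.63% and 4.96% were lower than EV from TBX2 to TBX5. Lower than Ctl were 13.4%, 4.15%, 4.03% and 4.38%. The counts in this and the later role groups, which are small, were not tested against these shares. CDK1 (ENSG00000170312, chr10:62538089-62554610 in GRCh37), the kinase that drives entry, stood in libraries a, b and c at 70.2, 67.1 and 77.05 CPM in EV and at 81.1, 74.5 and 73.6 CPM in Ctl. It was at 53.8, 57.98 and 51.6 CPM with TBX2 and at 59.7, 46.3 and 65.2 CPM with TBX3, all below every control library. With TBX4 it was at 66.3, 60.1 and 67.3 CPM and with TBX5 at 68.2, 51.8 and 59.0 CPM, where the upper values overlapped the EV range. By edgeR it fell with TBX2 by 0.39 ± 0.10 (log2, SE; adjusted p = 0.0042) relative to EV and by 0.48 ± 0.10 (adjusted p = 0.000522) relative to Ctl. With TBX3 it fell by 0.31 ± 0.10 (adjusted p = 0.049) and 0.40 ± 0.10 (adjusted p = 0.0081) in the edgeR test. The TBX3 call against EV rested on single libraries, with an edgeR adjusted p of 0.268 without TBX3 b. Relative to Ctl it fell with TBX5 by 0.34 ± 0.10 (edgeR adjusted p = 0.0335), a call lost without Ctl a, TBX5 b or TBX5 c.

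CDC25B, the phosphatase that starts CDK1 activation, was at 72.7, 69.1 and 66.0 CPM in EV and at 79.7, 79.2 and 75.4 CPM in Ctl. With TBX2 it was at 61.5, 49.7 and 54.1 CPM, below all controls. It stood at 75.8, 69.6 and 70.6 CPM with TBX3, at 60.4, 72.0 and 70.0 CPM with TBX4 and at 70.6, 62.9 and 64.9 CPM with TBX5, each overlapping EV. With TBX2 it fell by 0.33 ± 0.08 (edgeR adjusted p = 0.00351) and 0.51 ± 0.08 (2.58e-05) relative to EV and Ctl. Its falls relative to Ctl with TBX4 (-0.21, edgeR adjusted p = 0.0973) and TBX5 (-0.23, edgeR adjusted p = 0.0769) were lost without 12 and 4 of the 18 libraries in turn. The library of conflicting title is 1 of those 12. Cyclin B1 (CCNB1), the main partner of CDK1, fell with TBX2 by 0.26 ± 0.09 (edgeR adjusted p = 0.0334) relative to EV, where EV c at 208 CPM stood above EV a and b at 164 and 171 CPM, and without EV c the adjusted p was 0.31. Relative to Ctl it fell with TBX2 by 0.33 ± 0.09 (edgeR adjusted p = 0.00661) and with TBX3 by 0.27 ± 0.09 (edgeR adjusted p = 0.0567). AURKA, the kinase of the spindle poles, fell with TBX2 by 0.18 ± 0.07 and 0.27 ± 0.07 (edgeR adjusted p = 0.0706 and 0.00723), and the first of these was lost without EV c, TBX2 a or TBX2 c. The Polo-like kinase PLK1 passed in no contrast, with values from -0.18 to -0.00. CCNA2 and CDCA3 also fell below both controls with TBX2.

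Of the 12 kinetochore and checkpoint genes, 6 fell and 1 rose with TBX2 relative to EV, and 8 fell relative to Ctl, 6 of them in both. The counts lower than EV and Ctl were 0 and 2 with TBX3, 1 and 6 with TBX4 and 1 and 6 with TBX5. SPC24 (ENSG00000161888, chr19:11242196-11266483 in GRCh37), a subunit of the NDC80 complex that holds microtubules, was at 48.3, 49.5 and 45.6 CPM in EV and at 48.7, 41.2 and 50.1 CPM in Ctl. It was at 29.2, 38.9 and 30.8 CPM with TBX2, at 40.2, 39.7 and 37.01 CPM with TBX4 and at 37.4, 33.6 and 40.4 CPM with TBX5, in each case below all 6 controls, though TBX4 a and TBX5 c came within 1 CPM or so of Ctl b. With TBX3 it was at 47.8, 46.2 and 39.9 CPM and overlapped the controls. SPC24 fell with TBX2 by 0.52 ± 0.10 (edgeR adjusted p = 0.000258) relative to EV and by 0.49 ± 0.10 (0.000503) relative to Ctl. With TBX5 it fell by 0.36 ± 0.10 (edgeR adjusted p = 0.0278) and 0.32 ± 0.10 (0.0469). With TBX4 the falls were 0.29 ± 0.09 (edgeR adjusted p = 0.0735) and 0.26 ± 0.09 (0.0973). Without the library of conflicting title the TBX4 values were -0.25 (adjusted p = 0.238) and -0.22 (0.241), and the TBX5 calls were lost without TBX5 b.

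Of the partners of SPC24 in the same complex, SPC25 was at 8.93 to 14.2 CPM with TBX2 against 10.6 to 13.6 CPM in the controls and passed in no contrast, with a standard error of 0.15 to 0.16. Its libraries with TBX5 were at 16.8, 10.3 and 11.1 CPM, with values of 0.19 and 0.16 relative to EV and Ctl. NUF2 passed in none, and NDC80 fell with the same factors as SPC24, TBX2, TBX4 and TBX5, but relative to Ctl only (-0.18, -0.21 and -0.25). The TBX4 call of NDC80 was lost without the library of conflicting title. Among checkpoint genes, the kinase TTK and BUB1B fell below both controls with TBX2 and relative to Ctl with each factor. BUB3 (-0.25 and -0.23) and MAD2L1 (-0.24 and -0.24) fell relative to both controls with TBX2. CENPF, a large kinetochore protein, did so too (-0.20 and -0.33). CENPE, the kinesin that carries chromosomes to the spindle equator, went the other way. It was at 122, 138 and 153 CPM with TBX2 against 117, 107 and 99.95 CPM in EV, with no overlap, but at 125, 122 and 121 CPM in Ctl. It rose relative to EV by 0.35 ± 0.08 (edgeR adjusted p = 0.00314), while the value relative to Ctl was 0.17 ± 0.08 (adjusted p = 0.166).

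The 4 genes of the chromosomal passenger complex, which corrects faulty attachments, had few calls, and none fell below both controls. AURKB, its kinase, was at 54.0, 60.03 and 54.5 CPM in EV and at 50.6, 54.6 and 54.0 CPM in Ctl. It was at 48.3, 51.6 and 45.0 CPM with TBX2 and at 48.3, 48.1 and 44.4 CPM with TBX3, and only the TBX3 libraries were all below every control. It fell relative to EV by 0.21 ± 0.07 with TBX2 (edgeR adjusted p = 0.0379) and by 0.26 ± 0.07 with TBX3 (edgeR adjusted p = 0.0265), and the calls were lost without EV b, or without TBX2 c and TBX3 c respectively. Borealin (CDCA8) fell relative to Ctl with TBX4 and TBX5 (-0.20 and -0.25), the TBX4 call being lost without the library of conflicting title. INCENP and survivin (BIRC5) passed in no contrast.

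Of the 9 mitotic kinesins, motors that walk on or trim spindle microtubules, 3 fell and 2 rose with TBX2 relative to EV and 6 fell relative to Ctl. With TBX3, TBX4 and TBX5 the counts lower than EV were 1, 1 and 2, and lower than Ctl 2, 4 and 6. KIF23 (ENSG00000137807, chr15:69706585-69740766 in GRCh37), the centralspindlin motor needed for cytokinesis, was at 126, 129 and 137 CPM in EV and at 137, 138 and 140.5 CPM in Ctl. It was at 101, 105 and 106 CPM with TBX2, at 114, 118 and 117 CPM with TBX3, at 125, 114 and 117 CPM with TBX4 and at 109, 108 and 109 CPM with TBX5. Every TBX library lay below every control, though TBX4 a was only just under EV a. It fell relative to EV with TBX2 by 0.33 ± 0.06 (edgeR adjusted p = 0.000148), with TBX5 by 0.27 ± 0.06 (0.00554) and with TBX3 by 0.17 ± 0.06 (0.0786), while the TBX4 value was -0.14 ± 0.06 (0.194). Relative to Ctl it fell with all 4, by 0.41, 0.25, 0.22 and 0.35 from TBX2 to TBX5, each ± 0.06, with edgeR adjusted p from 7.17e-06 to 0.019, and the TBX4 call was lost without TBX4 b but held without the library of conflicting title (-0.21, adjusted p = 0.0673). The TBX3 call against EV was lost without EV b, EV c or any TBX3 library. KIF23-AS1 covers 3.51% of its exon bases.

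KIF20A, which places the passenger complex at the spindle midzone, was lowest in the 3 TBX2 libraries. Its levels were 122, 123 and 122 CPM in EV, 123, 132 and 140.2 CPM in Ctl and 85.1, 97.4 and 81.4 CPM with TBX2. With TBX3 it was at 128, 119.9 and 123 CPM, with TBX4 at 123, 117 and 110.0 CPM and with TBX5 at 109, 118 and 118 CPM, so that the TBX2 libraries stood apart from all the others. It fell with TBX2 by 0.48 ± 0.07 (edgeR adjusted p = 1.33e-05) and 0.58 ± 0.07 (5.69e-07). As a level it fell by 28.1% and by 33.0% relative to EV and Ctl. With TBX5 it fell relative to Ctl by 0.20 ± 0.07 (edgeR adjusted p = 0.0945), a call lost without 11 of the 18 libraries in turn.

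KIFC1 (ENSG00000237649, chr6:33359600-33377673 in GRCh37), a minus-end motor that focuses spindle poles, was at 62.4, 68.6 and 65.6 CPM in EV and at 70.4, 69.6 and 69.8 CPM in Ctl. It was at 54.5, 52.8 and 45.6 CPM with TBX2 and at 51.5, 59.8 and 51.2 CPM with TBX4, below all controls. With TBX3 it was at 61.3, 63.2 and 57.5 CPM, and with TBX5 its libraries spread from 50.7 to 67.7 CPM, so both overlapped EV. It fell with TBX2 by 0.36 ± 0.09 (edgeR adjusted p = 0.0034) and 0.45 ± 0.09 (0.000305), and with TBX4 by 0.27 ± 0.08 (0.06) and 0.37 ± 0.08 (0.00628). Without the library of conflicting title the TBX4 values were -0.23 (adjusted p = 0.224) and -0.33 (0.0386). A ribosomal protein pseudogene, RPL12P1, covers 14% of its exon bases. Of the other kinesins, KIF14 and KIF4A rose relative to EV with TBX2 (0.20 and 0.19) but had 0.05 and 0.04 relative to Ctl. KIF2C, which depolymerises microtubules, fell below both controls with TBX5 (-0.21 and -0.25), and KIF11, the motor that pushes the poles apart, fell relative to Ctl with each factor (-0.18 to -0.25). The TBX4 call of KIF11 was lost without the library of conflicting title.

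**Figure D5:**
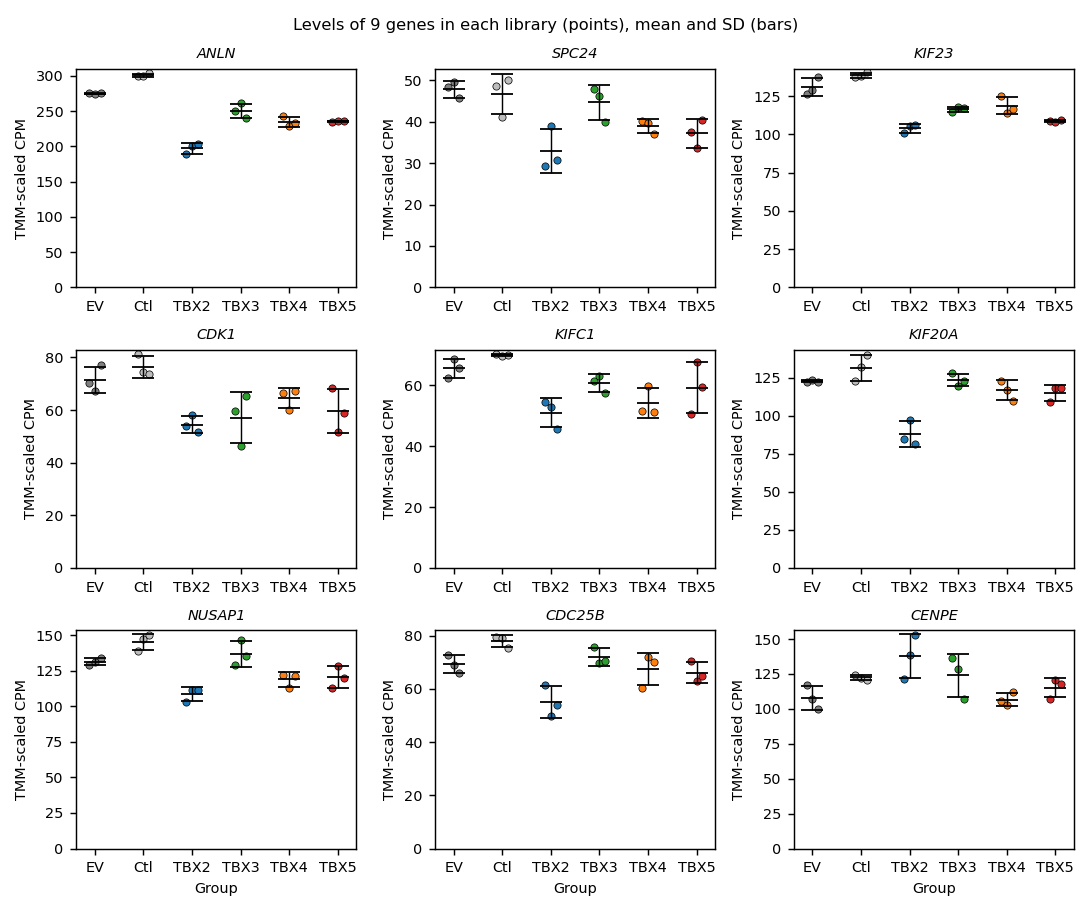
TMM-scaled CPM of 9 mitosis and spindle genes in each library (points) by group, with mean and SD (bars, n = 3); vertical axes start at 0. KIF20A stands at 81.4 to 97.4 CPM with TBX2 and at 109 CPM or more in every other library, ANLN at 189 to 203 CPM with TBX2 and at 273 to 303 CPM in the controls, and CENPE reaches 153 CPM with TBX2.

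Of the 9 genes grouped here as spindle microtubule factors, not all of which bind microtubules, 4 fell below both controls with TBX2, namely PRC1, CKAP5, NUSAP1 and KPNA2. The counts lower than Ctl were 7, 2, 5 and 5 from TBX2 to TBX5, while 0 fell relative to EV with TBX3, TBX4 or TBX5. NUSAP1, which bundles microtubules near chromosomes, was at 129, 132 and 134 CPM in EV, at 139, 147 and 150.0 CPM in Ctl and at 103, 111 and 112 CPM with TBX2. With TBX3 it was at 129, 147 and 135 CPM, overlapping the controls, with TBX4 at 122, 113 and 122 CPM and with TBX5 at 113, 129 and 120.0 CPM. It fell with TBX2 by 0.28 ± 0.07 (edgeR adjusted p = 0.00292) and 0.42 ± 0.07 (2.41e-05), and relative to Ctl with TBX4 by 0.29 ± 0.06 (0.00564) and with TBX5 by 0.28 ± 0.07 (0.0105). Without the library of conflicting title the TBX4 value was -0.31 (edgeR adjusted p = 0.014). OIP5 and OIP5-AS1 cover 15.2% of its exon bases, and PRC1-AS1 covers 34.3% of those of PRC1, and counting at default settings drops reads that fall on several genes. HMMR, a spindle pole protein, fell with TBX3 relative to Ctl (-0.24, edgeR adjusted p = 0.0539) and had 0.14 and 0.11 with TBX2.

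Anillin (ANLN, ENSG00000011426, chr7:36429430-36493400 in GRCh37), the scaffold of the contractile ring, was called lower in 7 of the 8 contrasts of a factor with a control. It was at 276, 273 and 275 CPM in EV and at 299, 299 and 303 CPM in Ctl. It was at 189, 200.01 and 203 CPM with TBX2, at 249.5, 261 and 240.1 CPM with TBX3, at 242, 228 and 233 CPM with TBX4 and at 235, 237 and 236 CPM with TBX5. All 12 TBX libraries lay below all controls. Relative to EV it fell with TBX2 by 0.48 ± 0.06 (edgeR adjusted p = 6.05e-07), with TBX4 by 0.23 ± 0.06 (0.0211) and with TBX5 by 0.22 ± 0.06 (0.0204), while the TBX3 value was -0.14 ± 0.06 (0.166). Relative to Ctl it fell by 0.61, 0.27, 0.36 and 0.35 from TBX2 to TBX5, each ± 0.06 (edgeR adjusted p = 8.74e-09, 0.00391, 0.00019 and 0.000223). With TBX2 the level fell by 28.3% relative to EV and by 34.4% relative to Ctl. Each of these calls held when any 1 library was left out, with adjusted p up to 0.095, and without the library of conflicting title the TBX4 values were -0.22 (adjusted p = 0.0757) and -0.35 (0.00193). On plain library totals the TBX4 value relative to Ctl was 0.0017. ECT2, the other cytokinesis gene, fell with TBX2 relative to Ctl only (-0.15).

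The 6 genes of anaphase and cohesion moved in both directions. CDC20, which activates the anaphase-promoting complex, was at 138, 150.2 and 150.3 CPM in EV and at 143, 132 and 129 CPM in Ctl, with most EV libraries above Ctl. With TBX5 it was at 127, 115 and 106 CPM, below all controls, and with TBX2 at 123, 128 and 112 CPM, also below all. The TBX3 libraries, at 121, 129.7 and 127 CPM, and the TBX4 libraries, at 130.1, 129.8 and 125 CPM, overlapped Ctl. It fell with TBX5 by 0.34 ± 0.07 (edgeR adjusted p = 0.00371) relative to EV and by 0.21 ± 0.07 (0.0672) relative to Ctl, and with TBX2 and TBX3 relative to EV only, by 0.27 ± 0.07 (0.00549) and 0.22 ± 0.07 (0.053). The TBX5 call against Ctl was lost without Ctl a, Ctl b, TBX5 b or TBX5 c. The annotation lists 1 pseudogene of CDC20 and 5 of UBE2C, so reads shared with these copies make both counts uncertain. The same limit holds for other members, among them KPNA2 (3 pseudogenes), AURKA (2) and BUB3, MAD2L1, CDCA3 and MKI67 (1 each).

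UBE2C, the conjugating enzyme of the same complex, was the TBX3 member here. It was at 74.6, 73.9 and 72.3 CPM in EV, at 68.5, 79.0 and 76.1 CPM in Ctl and at 61.0, 59.4 and 62.1 CPM with TBX3, with no overlap. It fell with TBX3 by 0.27 ± 0.07 (edgeR adjusted p = 0.0126) and 0.29 ± 0.07 (0.00637), and both calls held without any 1 library. The TBX2 libraries were all at 67.9 to 68.0 CPM, with values of -0.11 and -0.13 that did not pass. Sororin (CDCA5), which protects cohesion, rose relative to Ctl with TBX3 (0.24 ± 0.08, edgeR adjusted p = 0.0614) and TBX2 (0.19 ± 0.08, edgeR adjusted p = 0.0954), and the calls were lost without 4 and 8 of the 18 libraries in turn, Ctl b among them. Separase (ESPL1), which cuts cohesin, rose with TBX2 relative to EV (0.18) and had 0.01 relative to Ctl. Securin (PTTG1), its inhibitor, passed in no contrast with a control. It was at 165, 155 and 151 CPM with TBX4 against 137 to 141 CPM in EV, with a value of 0.18 ± 0.07 (edgeR adjusted p = 0.176).

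Of the 7 condensin and mitotic chromosome genes, 3 fell below both controls with TBX2 (NCAPH, SMC2 and MKI67), and 5, 3, 4 and 5 fell relative to Ctl from TBX2 to TBX5. Relative to EV 3 fell and 1 rose with TBX2 and 0 passed with the other factors. NCAPH, a condensin I subunit, was at 32.6, 33.9 and 37.3 CPM in EV and higher, at 40.2, 40.7 and 38.8 CPM, in Ctl. It was at 27.8, 29.1 and 33.0 CPM with TBX2, at 35.4, 28.7 and 32.4 CPM with TBX3, at 29.5, 31.1 and 29.9 CPM with TBX4 and at 34.4, 32.2 and 28.6 CPM with TBX5. All TBX libraries were thus below all Ctl libraries, and only those of TBX4 were also below all EV libraries. Relative to Ctl it fell by 0.42, 0.31, 0.40 and 0.32 from TBX2 to TBX5 (SE 0.08 to 0.09, edgeR adjusted p = 0.000575, 0.022, 0.00231 and 0.0257), and the TBX3 and TBX5 calls were lost without TBX3 b and TBX5 c respectively. Without the library of conflicting title the TBX4 value was -0.40 (edgeR adjusted p = 0.0112). Relative to EV it fell with TBX2 by 0.23 ± 0.09 (edgeR adjusted p = 0.0615), a call lost without EV c, TBX2 a or TBX2 b.

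TOP2A, which untangles sister chromosomes, had the smallest adjusted p of the 58 between the controls, which did not pass. It was at 338, 322 and 319.8 CPM in Ctl and at 279, 279.7 and 292 CPM in EV. The 12 TBX libraries ran from 255 to 285 CPM, all below Ctl, and all but those of TBX2 overlapped EV. It fell relative to Ctl with each factor, by 0.30, 0.24, 0.24 and 0.25 (edgeR adjusted p = 0.000492, 0.0128, 0.0123 and 0.0109), and passed in no contrast with EV, where the values were -0.03 to -0.09. EV relative to Ctl was at -0.20 ± 0.06 (edgeR adjusted p = 0.326). MKI67 was at 584, 569 and 529 CPM in EV, at 599.8, 631 and 589 CPM in Ctl and at 491, 448 and 503 CPM with TBX2, below all controls. It fell with TBX2 by 0.22 ± 0.07 (edgeR adjusted p = 0.0283, lost without EV a or TBX2 b) and 0.34 ± 0.07 (0.00113). With TBX3 it was at 606, 597 and 513 CPM, overlapping the controls, with values of 0.03 and -0.09. Relative to Ctl it fell with TBX4 (-0.26, edgeR adjusted p = 0.0269) and TBX5 (-0.29, edgeR adjusted p = 0.015). The TBX4 call was lost without Ctl b or TBX4 a and held without the library of conflicting title (-0.29, adjusted p = 0.0418). NCAPG rose with TBX2 relative to EV (0.15), but 33.7% of its exon bases overlap LCORL.

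The TBX groups were also compared with each other, with no control in the test. By edgeR's test over the 4 groups, 15 of the 58 genes differed, or 25.9%, against 22.7% of all tested genes, so their share was near the background. KIF20A came first (adjusted p = 6.97e-05), and it was lower with TBX2 than with TBX3 by 0.49, than with TBX4 by 0.40 and than with TBX5 by 0.38 on the log2 scale, each ± 0.07. ANLN was lower with TBX2 than with the same 3 factors by 0.34, 0.25 and 0.26, each ± 0.06. Between pairs, 10 members were lower and 1 higher with TBX2 than with TBX3 (background 7.51% and 8.01%), 10 and 1 than with TBX4 (5.61% and 6.66%), and 4 and 2 than with TBX5 (5.69% and 6.45%). TBX3 and TBX4 differed in 4 members, 2 each way (4.02% and 5.96%). By edgeR 0 members differed between TBX3 and TBX5 (3.11% and 4.3%, with 9 at an unadjusted p under 0.05) or between TBX4 and TBX5 (0.43% and 0.109%, with 4). For the counts at an unadjusted p, the share of all tested genes is not given here.

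A wider list of 107 other mitosis genes, all of which passed the filter, shows the surroundings of the 58. With TBX2, 24 fell and 8 rose relative to EV and 30 fell and 8 rose relative to Ctl, with median log2 values of -0.05 and -0.10. With TBX3 the counts were 3 and 5 relative to EV and 7 and 3 relative to Ctl, with TBX4 3 and 4, and 11 and 2, and with TBX5 10 and 1, and 12 and 0. Relative to EV, the shares lower were 22.4%, 2.8%, 2.8% and 9.35% from TBX2 to TBX5, against 13.4%, 4.12%, 2.63% and 4.96% of all tested genes, and the shares higher were 7.48%, 4.67%, 3.74% and 0.935%, against 14.7%, 5.78%, 3.83% and 5.26%. Relative to Ctl, the shares lower were 28.0%, 6.54%, 10.3% and 11.2%, against 13.4%, 4.15%, 4.03% and 4.38%, and the shares higher were 7.48%, 2.8%, 1.87% and 0%, against 15.3%, 6.66%, 5.68% and 5.7%. Among the 14 regulators of mitotic gene transcription in it, 5 fell with TBX2 relative to EV and 5 relative to Ctl. On the log2 scale E2F1, an activator of cell cycle genes, fell with TBX2 by 0.39 ± 0.09 (edgeR adjusted p = 0.00224) and 0.34 ± 0.09 (0.00702). MYBL2, the B-MYB activator of late cell cycle genes, fell by 0.25 ± 0.08 (edgeR adjusted p = 0.0278) and 0.28 ± 0.08 (0.0112). FOXM1, a main activator of mitotic genes, passed in no contrast of a factor with a control, with values from -0.13 to 0.02. Of the 30 other kinetochore genes as many rose as fell with TBX2 relative to EV, 6 each. Those that rose relative to both controls included NSL1 (0.45 and 0.38) and MIS12 (0.31 and 0.28), partners in 1 kinetochore complex, while KNL1, the scaffold they bind, fell (-0.25 and -0.40). ANAPC1, the largest subunit of the anaphase-promoting complex, fell relative to both controls with TBX2, TBX4 and TBX5, with values from -0.33 to -0.19. WEE1, the kinase that restrains CDK1, rose with TBX3 relative to EV by 0.39 ± 0.08 (edgeR adjusted p = 0.00339) and relative to Ctl by 0.22 ± 0.08 (0.0991).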

How the data were processed

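Total RNA of 18 NCI-H1299 libraries was sequenced in pairs. Per the labels and the study's methods, the authors made base calls with bcl2fastq 1.8.4, aligned the reads to GRCh37 with STAR 2.3.0 and deposited read counts per Ensembl gene from featureCounts at default settings, which ignore strand and drop reads of several sites or genes. The deposited counts were used as they stand, and 0 columns lacked a sample. From them, edgeR 4.0.16 in R 4.3.3 fitted 1 quasi-likelihood model of the 6 groups to genes counted over 5 times in 10 or more of the 18 libraries, scaled by TMM. Standard errors are the log2 fold change divided by the square root of F. The study compared each factor with its controls and does not say how EV and Ctl were combined; pooling them is an alternative here, as is DESeq2 1.42.0, its tool. Adjusted p under 0.1 (Benjamini-Hochberg over all 15576 tested genes) is a call.

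The 58 genes, the 107 other genes, the markers and the tests were chosen with earlier results of these data known. Genes named with every library value were the first 10 below both controls, ranked by the number of factors and then by mean absolute log2 fold change; extremes per factor and role, the smallest p among factors, and CCNB1, CDK1, PLK1, AURKA, CDC20, TOP2A and MKI67 were added, and further names were chosen after their values were seen. Symbols, coordinates, exon lengths and overlaps came from GENCODE on GRCh37, a later annotation than that of the counts, and promoters from RefSeq. Deviations from group means correlated at 0.00122 on average between libraries of the same letter (from -0.0938 to 0.143). Between libraries of different letters the average was -0.000573 (from -0.144 to 0.165). These values cannot show whether libraries of 1 letter were handled together. Libraries of a group were not copies of each other, but their distances were uneven. A chi-square per gene, near 1 for counting noise alone, was 1.58 for EV a and b and 8.34 for EV a and c. For TBX5 it was 2.16 for b and c and 13.1 for a and c. Whether closer pairs came from separate cultures is not stated. In simulated data for TBX2 against EV over 15576 genes, 45% of 100 changes of 0.4 and 87% of 100 changes of 1 (log2) were found, over genes above 1 CPM. Of the calls 15.4% were false, more than the threshold of 0.1 aims at. No other genes were changed, while the real contrast called 2088 lower and 2290 higher. These rates therefore need not hold for the real data or for the 58 genes.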

Additional observations from a re-analysis of the deposited data

Results flagged for a closer look

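The test of the difference itself, edgeR's quasi-likelihood test over the 4 TBX groups with Benjamini-Hochberg adjustment over all tested genes, singled out 15 of the 58 genes, and differing in this test is what brought each of them here. The share of genes it calls among all tested genes was 22.7%. The adjusted p was 6.97e-05 for KIF20A, 0.000702 for ANLN, 0.00524 for NUSAP1, 0.00618 for CDC25B, 0.0112 for HMMR, 0.0138 for CENPE, 0.0255 for SPC24 and 0.0328 for CENPF. It was 0.0564 for PTTG1, 0.0569 for CKAP2L, 0.0581 for MKI67, 0.0635 for KIF2C, 0.0653 for KIF23, 0.0732 for CDCA3 and 0.0895 for AURKA. TBX2 held the lowest mean of the 4 factors for KIF20A, ANLN, NUSAP1, CDC25B, SPC24, CENPF, MKI67, KIF23, CDCA3 and AURKA. NUSAP1, CENPF, CKAP2L and MKI67 were lower with TBX2 than with TBX3, by 0.33, 0.28, 0.27 and 0.25 on the log2 scale. HMMR and CENPE were highest with TBX2. HMMR stood at 70.1, 78.04 and 79.95 CPM with TBX2 and at 61.3, 60.3 and 57.8 CPM with TBX3, a difference of 0.35 ± 0.08. CENPE exceeded its TBX4 level with TBX2 by 0.37 ± 0.08. PTTG1 was highest with TBX4, below which it lay by 0.23 ± 0.07 with TBX3 and by 0.21 ± 0.07 with TBX2. KIF2C was at 78.3, 79.9 and 85.2 CPM with TBX5 and at 98.6, 97.8 and 89.3 CPM with TBX4, with no overlap, though no pair of factors passed the test for it.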

How the results depend on the processing

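With plain library totals as the scale, 0 members passed in any contrast or among the TBX groups. Of all tested genes, at most 0.366% were then lower in any contrast with a control (TBX2 relative to EV). The values relative to Ctl with TBX4 turned to 0.0017 for ANLN, 0.10 for SPC24, 0.14 for KIF23, 0.0685 for NUSAP1, 0.14 for CDC25B, 0.12 for TOP2A and 0.0934 for MKI67. The median of all tested genes moved by 0.36 there. With totals that leave out the most counted gene, 11 members were lower than EV with TBX3 (8.0% of all tested genes) and 11 with TBX5 (6.23%), and 9 and 9 lower than both controls. At adjusted p under 0.05 the counts lower than EV were 17 (TBX2), 3 (TBX3) and 1 (TBX4), lower than Ctl 14 (TBX4) and 19 (TBX5), lower than both 15 (TBX2), 1 (TBX4) and 3 (TBX5), and 8 differed among factors. Over all 15576 tested genes, 1538, 372 and 218 were then lower than EV with TBX2, TBX3 and TBX4. Lower than Ctl at that threshold were 381 (TBX4) and 441 (TBX5) of them. Without a filter on low counts TBX3 gave 3 and 9 against EV and Ctl, where 496 and 457 of all 40841 genes were lower. Separate fits gave 5 for TBX4 against EV, where 693 of all 15576 tested genes were lower, and 9 among factors. With EV and Ctl pooled, 35, 15, 15 and 21 members were lower from TBX2 to TBX5. For the pooled fit, the share over all tested genes is not given here, so these counts have no background. The same holds in these settings for counts below both controls and among factors. DESeq2 called 1 member lower in EV than in Ctl, and 9 of all 15576 tested genes. Its counts lower than EV and Ctl were 22 and 34 (TBX2), 6 and 15 (TBX3), 2 and 20 (TBX4) and 5 and 24 (TBX5). Of all 15576 tested genes, 1664 and 1669, 517 and 494, 276 and 421, and 518 and 518 were then lower, in the same order. With TBX2 4 members rose relative to EV and 0 relative to Ctl, of 1703 and 1796 tested genes that rose.

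With the letter as a replicate block the counts lower than EV and Ctl were 25 and 36 (TBX2), 5 and 15 (TBX3), 3 and 21 (TBX4) and 4 and 28 (TBX5), although only 6 of 18 libraries lay closest to their own letter. Of all 15576 tested genes, 2066 and 2086, 621 and 616, 377 and 608, and 726 and 661 were then lower, in the same order.

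With 1 library left out in turn, the counts lower than EV ran from 15 to 27 (TBX2), 2 to 8 (TBX3), 1 to 4 (TBX4) and 4 to 8 (TBX5). Those lower than Ctl ran from 7 to 16 (TBX3), 9 to 23 (TBX4) and 13 to 31 (TBX5), and those lower than both from 13 to 25 (TBX2), 1 to 4 (TBX3), 1 to 3 (TBX4) and 3 to 6 (TBX5). Of all tested genes, those lower than EV then ran from 1520 to 2182 (TBX2), 227 to 763 (TBX3), 180 to 481 (TBX4) and 402 to 840 (TBX5). Those lower than Ctl ran from 358 to 768 (TBX3), 336 to 737 (TBX4) and 425 to 745 (TBX5). For the counts lower than both controls, the share over all tested genes is not given here. The libraries behind the larger moves of the members are named with the counts above. The causes were not tested. A member that did not pass is not shown to be the same in both groups.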

Other observations

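The library of conflicting title held 6686 CPM of the 58 genes in all, against 6672 and 6877 CPM in the other TBX4 libraries and 6490.3 to 6683 CPM in the TBX5 libraries.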
